A study of Mus musculus with 12 samples.

Results

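The nuclear genes for the subunits of the mitochondrial respiratory chain and of ATP synthase were described in mouse induced pluripotent stem cells and in their derivatives after 4 days of differentiation. Members were all genes with a single symbol that begins with Nduf, Uqcr, Atp5 or Cox4 to Cox8, together with Sdha, Sdhb, Sdhc, Sdhd and Cyc1, and the rule used no measured value. It found 90 of the 19938 genes with a single symbol on the array. They are 36 genes named as subunits of complex I, 7 assembly factors of complex I (Ndufaf genes, which help to build the complex but are not part of it), 4 genes of complex II, 9 of complex III, 17 of complex IV and 17 of complex V. Ndufa4l2, a relative of the subunit gene Ndufa4, is counted under complex I by its name.

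The respiratory chain lies in the inner mitochondrial membrane. Complex I oxidises NADH and complex II oxidises succinate, complex III passes the electrons to cytochrome c, and complex IV hands them to oxygen. The proton gradient that complexes I, III and IV build drives complex V, the ATP synthase. Pluripotent stem cells are known for a high rate of glycolysis, and heart muscle, which cardiac progenitors can form, is known for its reliance on the respiratory chain.

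RNA was measured on 12 Affymetrix arrays, 3 in each of 4 groups. Spontaneously differentiated cells were taken at day 4, and so were cells of an optimized cardiac differentiation, for which the labels add the unexpanded note EB + ck. A population enriched for cardiac progenitor cells (CPCs) was sorted at day 4 for FLK1 and PDGFRα on the cell surface, and the labels do not say from which culture. The reference was undifferentiated iPSCs at day 0, also labelled piPS cell without explanation. Strain, genotype, sex and cell line are not given in the sources used here, and nothing says that replicates are separate cultures, so a p-value reflects the spread among these arrays alone, and that spread may be technical. Values are log2 signals of the deposited table, made with RMA, a method that corrects background, normalises arrays and summarises probes. A difference of 1 is a 2-fold change, and each probe set was compared with itself between groups, never with another.

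In 3 libraries Kdr stood apart from its group. Kdr, the gene of FLK1, had signals of 9.83, 10.71 and 10.27 in spontaneous arrays 1 to 3, of 5.42, 10.81 and 9.01 in cardiac arrays, of 10.23, 6.25 and 6.03 in sorted arrays and of 5.50, 5.54 and 5.78 in day 0 arrays. The libraries labelled cardiac replicate 1 and sorted replicates 2 and 3 were thus at or close to the day 0 level of a gene used for the sort. Counts of called members and of the related gene lists are also given without these 3, a choice made after their Kdr values were seen. Pdgfra was 11.13 in sorted replicate 1 and 8.47 and 8.29 in the other 2, against 8.75 to 9.14 at day 0, so both sort markers were low in sorted replicates 2 and 3. Cardiac cells were not sorted, and in cardiac arrays 1 to 3 Pdgfra was 9.42, 10.26 and 9.60, all above day 0. Cardiac replicate 1 had the highest signals of the 12 arrays for the endoderm genes Ttr (11.34) and Apob (10.61). Sorted replicate 2 had mesoderm genes above day 0, with Mixl1 at 10.35 and Eomes at 10.34, against at most 6.10 and 6.97 at day 0. The lowest correlation between arrays of a group was 0.9656 in sorted, 0.9730 in cardiac, 0.9922 in spontaneous and 0.9890 in day 0 arrays. None of 9 cardiomyocyte markers passed the test in any day 4 group, and their mean signal was 5.82 to 6.15 in all arrays. Pluripotency markers fell in 4, 3 and 3 of 7 cases in spontaneous, cardiac and sorted cells, fibroblast or feeder markers in 4, 4 and 3 of 6, and germ cell markers in 2 of 4 in each group. Endoderm markers rose in 1, 5 and 0 of 6 cases. Of all genes, 4.29%, 2.80% and 3.31% fell and 5.46%, 3.37% and 1.81% rose in these groups. The part of these markers in the results below was not tested.

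Many respiratory chain genes have promoters with sites for the factors NRF1, GABP and other ETS proteins, YY1 and ESRRA. The RefSeq promoter table (build GRCm38.p6, 250 bases before to 50 bases after the start) held 73 of the 90 members. The NRF1 motif, whose letters stand in capitals in the stretches below, was found on either strand in 18 of the 73 promoters, which is 24.7%, against 5.19% of all promoters and 7.17% of protein-coding ones. ETS letters (ACCGGAAG) were found in 8 (11.0%, against 2.60% and 3.40%), the YY1 motif in 5 (6.85%, against 0.995% and 1.41%) and ESRRA letters (TCAAGGTCA) in 2 (2.74%, against 0.466% and 0.377%). These are matches of letters, and binding was not measured. Stretches from 90 bases before to 25 bases after the start are shown for 3 genes that passed the test in a comparison below and for 2 complex II genes that did not, 5′ to 3′ on the strand of the gene, with matched letters of these 4 motifs in capitals on either strand:
Atp5g3 (chr2:73911302-73911416, minus strand, NRF1 and ESRRA): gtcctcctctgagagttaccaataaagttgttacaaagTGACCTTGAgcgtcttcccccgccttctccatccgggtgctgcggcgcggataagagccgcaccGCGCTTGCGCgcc
Atp5md (chr19:47090623-47090737, minus strand, ETS): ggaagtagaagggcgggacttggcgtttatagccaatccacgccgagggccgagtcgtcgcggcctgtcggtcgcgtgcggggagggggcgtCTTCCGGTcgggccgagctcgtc
Uqcrc1 (chr9:108936558-108936672, plus strand, NRF1): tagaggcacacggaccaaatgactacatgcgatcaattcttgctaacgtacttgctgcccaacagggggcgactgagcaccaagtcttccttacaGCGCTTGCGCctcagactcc
Sdhd (chr9:50603825-50603939, minus strand, NRF1 and ETS): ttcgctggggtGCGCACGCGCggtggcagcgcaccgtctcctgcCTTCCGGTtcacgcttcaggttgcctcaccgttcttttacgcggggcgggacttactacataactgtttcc
Sdha (chr13:74350216-74350330, minus strand, NRF1 at 2 places): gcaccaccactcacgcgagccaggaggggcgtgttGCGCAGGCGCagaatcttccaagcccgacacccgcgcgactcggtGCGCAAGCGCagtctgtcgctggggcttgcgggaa
Of the other genes that passed a test below, Ndufb7 had none of the 4 letter strings in its promoter window, and Atp5mpl is named only. Genes that passed and genes that did not thus both carried such matches.

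The first question was whether the 90 genes differed from day 0 after differentiation. Most did not pass the test: in spontaneous cells 4 rose and 0 fell, in cardiac cells 0 rose and 0 fell, and in sorted cells 0 rose and 1 fell, at an adjusted p under 0.05 in limma over all genes. The members called made up 4.44%, 0% and 1.11%, against 9.75%, 6.17% and 5.11% of all genes, of which 5.46%, 3.37% and 1.81% rose and 4.29%, 2.80% and 3.31% fell. In spontaneous cells Atp5mpl, Atp5g3, Atp5md and Ndufb7 rose by 1.35-fold to 1.54-fold, and in sorted cells Uqcrc1 fell to 0.709 of its day 0 signal. In bulk RNA, fewer cells of a type and less RNA per cell cannot be told apart.

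The sizes were small in all 3 comparisons. The median difference of the 90 members was -0.00 in spontaneous, 0.00 in cardiac and -0.05 in sorted cells, beside -0.03, -0.05 and 0.03 over all genes. A dim filter kept 12320 genes, 87 members among them, that lay above their array's median on at least 3 arrays. Over those 12320 genes the medians were 0.03, 0.04 and -0.00. Differences under 0.5 in size were found for 84, 89 and 86 of the 90, that is 93.3%, 98.9% and 95.6%, beside 85.3%, 88.0% and 89.2% of all genes. The 95% interval of the difference lay within 1 either way for 86, 90 and 87 members (95.6%, 100% and 96.7%), beside 87.6%, 89.6% and 90.1% of all genes. At an unadjusted p under 0.05 the counts were 23, 7 and 17 of 90, beside 24.0%, 22.4% and 19.3% of all genes. The arrays of the groups did not overlap for 17 members higher and 14 lower in spontaneous cells, which was 34.4% of them. Of all genes 41.0% did not overlap there, 19.4% higher and 21.6% lower. In cardiac cells 4 members were higher and 12 lower without overlap (17.8%), beside 29.0% of all genes, 12.8% higher and 16.2% lower. In sorted cells 5 were higher and 14 lower (21.1%), beside 21.5% of all genes, 10.2% higher and 11.3% lower. With a 2-fold minimum added to the adjusted p, 0 members passed in any of the 3 comparisons, beside 3.57%, 2.2% and 2.11% of all genes.

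**Figure D1:**
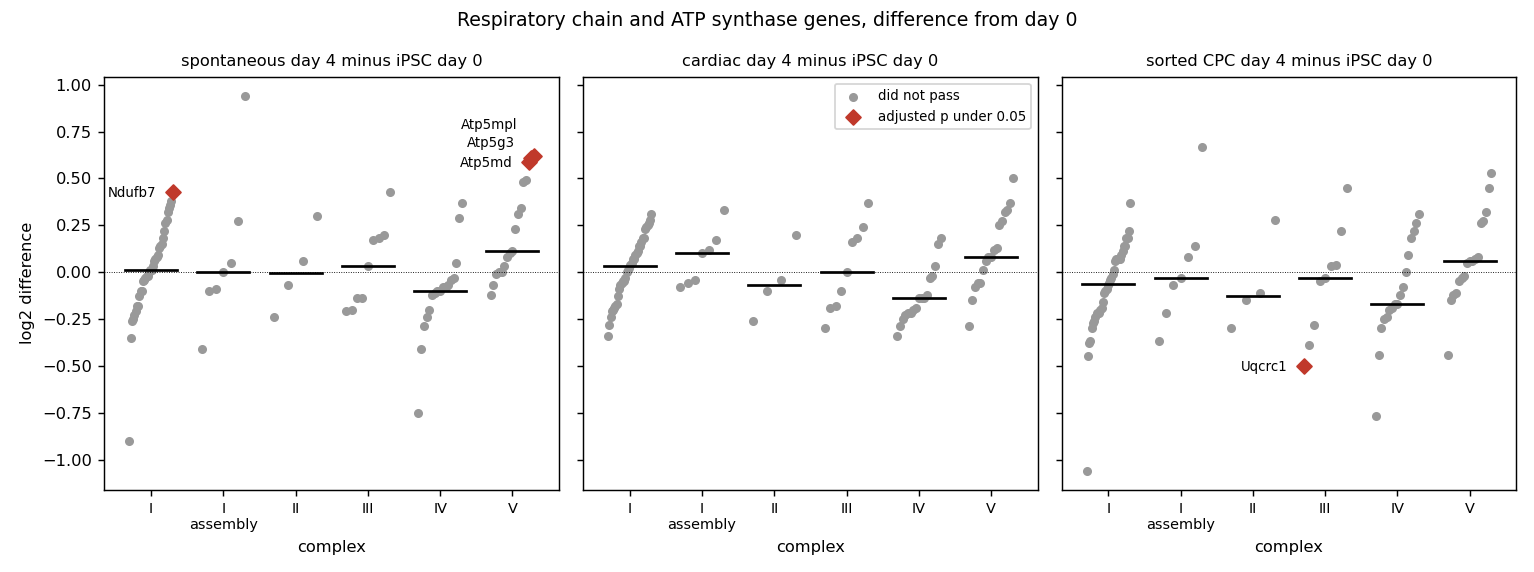
Log2 difference from iPSC day 0 (vertical axis) of the 90 member genes by complex (horizontal axis), in spontaneous, cardiac and sorted CPC day 4 cells from left to right. Each point is a gene, sorted by its difference within its complex, the bar is the median and red diamonds passed an adjusted p under 0.05. The 3 red complex V genes in spontaneous cells lie between 0.59 and 0.62, and Uqcrc1 is the single red gene in sorted cells, at -0.50.

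Normalisation between arrays mattered for so narrow a range. After cyclic loess on top of RMA, the members called were 2 higher and 3 lower in spontaneous cells, 0 and 3 in cardiac cells, and 1 and 3 in sorted cells. The share of all genes called under that scaling is not given here. The genes that then passed as lower were Uqcrc1, Sdhc and Cox5a in spontaneous cells, Uqcrc1, Sdhc and Atp5b in cardiac cells, and Uqcrc1, Cyc1 and Atp5b in sorted cells. Leaving out the 3 libraries with low Kdr gave 2 higher (Atp5md, Ndufaf4) and 1 lower (Uqcrc1) in the remaining 2 cardiac arrays, where 15.3% of all genes passed. In the single sorted array that was left, assumed to vary like the other groups, it gave 2 higher (Atp5g3, Ndufaf4) and 5 lower (Uqcrc1, Cyc1, Cox6a1, Ndufb6, Ndufb9), where 10.9% of all genes passed.

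ATP synthase held 3 of the 5 calls. Its rotor turns within a catalytic head that a peripheral stalk holds still, and small membrane subunits link the enzymes into dimers. Over its 17 genes the median difference was 0.11 in spontaneous, 0.08 in cardiac and 0.06 in sorted cells, and 12, 12 and 10 of the genes were above 0. Of the 17, 3, 0 and 0 passed the test, all higher. That was 17.6%, 0% and 0%, beside 9.75%, 6.17% and 5.11% of all genes, of which 5.46%, 3.37% and 1.81% were higher. Cyclic loess left medians of 0.03, 0.02 and 0.04 and only the call of Atp5mpl in spontaneous cells (adjusted p = 0.0415), while Atp5g3 and Atp5md lost theirs (adjusted p = 0.0502 and 0.0868) and Atp5b passed as lower in cardiac and sorted cells.

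Atp5mpl, which encodes a small proteolipid of the membrane part, had signals of 10.36, 10.24 and 10.52 in spontaneous arrays, 9.91, 10.25 and 10.07 in cardiac arrays, 9.93, 10.03 and 10.08 in sorted arrays and 9.84, 9.39 and 10.02 in day 0 arrays. The spontaneous arrays all lay above the day 0 arrays, while cardiac and sorted arrays overlapped with the highest day 0 array. The difference in spontaneous cells was 0.62 ± 0.15 (SE, adjusted p = 0.0235), and it was 0.33 in cardiac cells (adjusted p = 0.232) and 0.26 in sorted cells (adjusted p = 0.402).

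Atp5md, the gene of a membrane subunit also called DAPIT, had signals of 10.60, 10.76 and 10.88 in spontaneous arrays, 10.38, 10.81 and 10.78 in cardiac arrays, 10.45, 10.52 and 10.84 in sorted arrays and 10.18, 9.85 and 10.43 in day 0 arrays. Spontaneous and sorted arrays lay above all day 0 arrays, and cardiac replicate 1 lay below the highest of them. The difference was 0.59 ± 0.17 in spontaneous cells (SE, adjusted p = 0.0394), 0.50 in cardiac cells (adjusted p = 0.0917) and 0.45 in sorted cells (adjusted p = 0.148). Its 3 probe sets gave 0.57 to 0.59 in spontaneous cells, and with their mean the adjusted p was 0.0559.

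Atp5g3 is a gene of subunit c, the ring that turns in the membrane. Its signals were 10.80, 10.92 and 11.09 in spontaneous arrays, 10.43, 10.90 and 10.75 in cardiac arrays, 11.02, 11.02 and 10.52 in sorted arrays and 10.05, 10.26 and 10.66 in day 0 arrays. Every spontaneous array was above day 0, and cardiac replicate 1 and sorted replicate 3 fell within the day 0 range. The difference was 0.61 ± 0.18 in spontaneous cells (SE, adjusted p = 0.0485), 0.37 in cardiac cells (adjusted p = 0.249) and 0.53 in sorted cells (adjusted p = 0.117).

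Day 0 replicate 3 was the highest of the day 0 arrays for 12 of the 17 complex V genes and replicate 2 the lowest for 12. The calls of all 4 genes that rose in spontaneous cells were lost when day 0 replicate 1 or 2 or any of the spontaneous arrays was left out, with adjusted p up to 0.191 for Atp5g3, 0.166 for Atp5md, 0.111 for Atp5mpl and 0.122 for Ndufb7. Without day 0 replicate 3, 6 members passed. Many genes of this family have processed pseudogenes, and hybridisation of their transcripts was not tested.

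**Figure D2:**
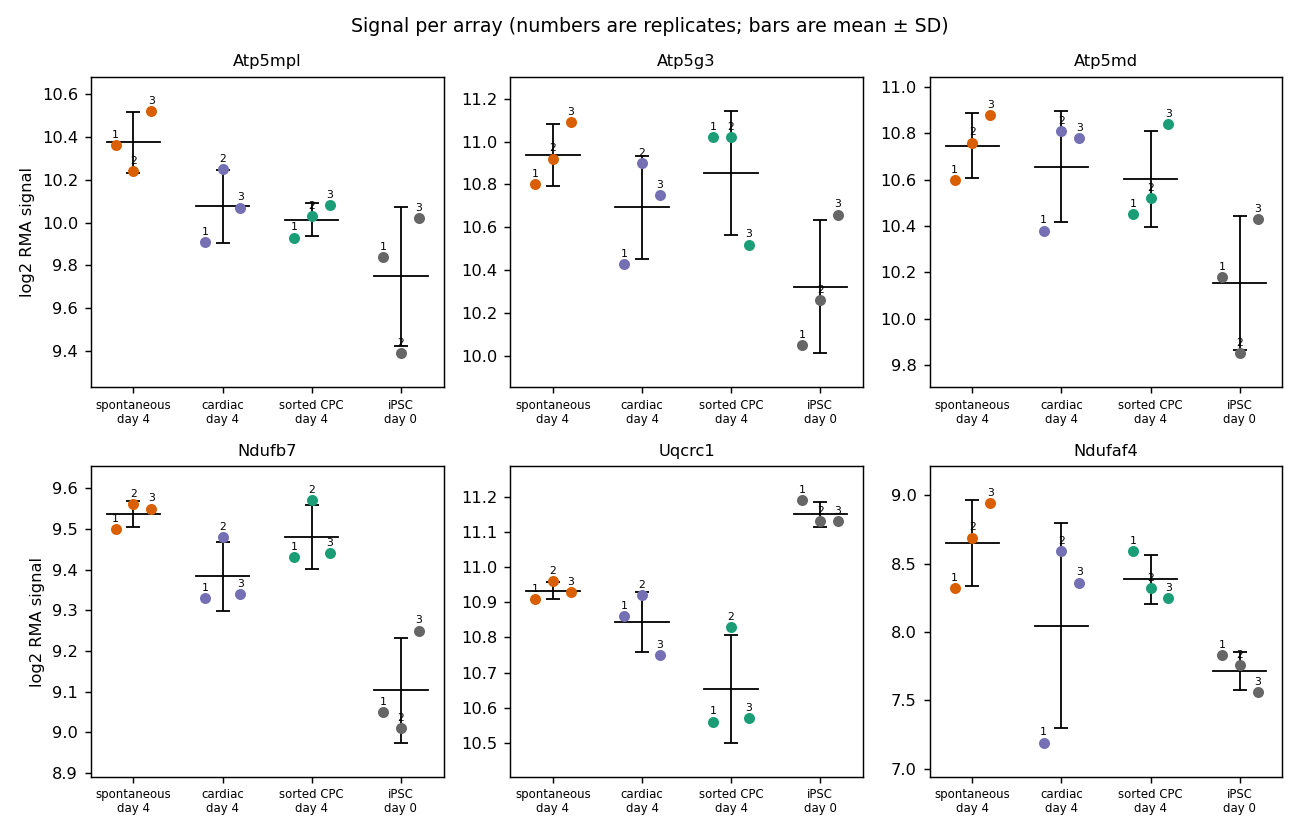
Log2 RMA signal per array of the 5 genes that passed the test in a comparison with day 0 and of Ndufaf4, with groups on the horizontal axis from spontaneous, cardiac and sorted CPC day 4 to iPSC day 0. Points are arrays with their replicate number, and bars are mean ± SD of 3 arrays. Ndufaf4 in cardiac replicate 1, at 7.19, is the lowest point of its panel.

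The other subunit c genes encode the same mature protein with different import sequences. Atp5g1 had signals of 8.39, 8.49 and 8.71 in spontaneous arrays, 8.34, 8.62 and 8.12 in cardiac arrays, 8.16, 8.47 and 8.02 in sorted arrays and 8.62, 8.39 and 8.94 in day 0 arrays. Its groups overlapped, with differences of -0.12, -0.29 and -0.44 and no call. Atp5g2 had signals of 10.92, 10.96 and 11.02 in spontaneous arrays, 11.35, 11.29 and 11.04 in cardiac arrays, 10.83, 11.08 and 11.23 in sorted arrays and 11.03, 10.93 and 10.98 in day 0 arrays. The cardiac arrays lay above day 0 by 0.25 (adjusted p = 0.216), and the differences in spontaneous and sorted cells were -0.01 and 0.06. The 3 genes of subunit c therefore had a difference of opposite sign for Atp5g1 and Atp5g3, with adjusted p of 0.0485 to 0.738 in spontaneous cells, and the contrast between them was not tested.

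The 9 genes of the peripheral stalk and the small membrane subunits had medians of 0.34 in spontaneous, 0.13 in cardiac and 0.08 in sorted cells, above 0 under each scaling, and 8, 7 and 7 of the 9 were above 0. Besides Atp5mpl and Atp5md, none passed. Atp5k (subunit e) gave 0.49, 0.27 and 0.32, Atp5l (subunit g) 0.48, 0.32 and 0.27, Atp5o (the stalk protein OSCP) 0.34, 0.13 and 0.08, and Atp5j (coupling factor 6) 0.31, 0.06 and 0.07 in spontaneous, cardiac and sorted cells. Atp5j2 (subunit f) gave 0.23, 0.12 and 0.06, Atp5h (subunit d) 0.11, -0.08 and -0.03, and Atp5pb (subunit b) -0.00, -0.06 and -0.11. Adjusted p for these 7 genes ran from 0.136 to 0.999 in spontaneous cells.

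The catalytic head F1 moved little. Its 5 genes had medians of 0.03, 0.01 and -0.05, and under cyclic loess all 3 medians were below 0, at -0.03, -0.07 and -0.09. Atp5b, the catalytic beta subunit, had signals of 12.53, 12.59 and 12.61 in spontaneous arrays, 12.52, 12.51 and 12.47 in cardiac arrays, 12.53, 12.62 and 12.36 in sorted arrays and 12.67, 12.65 and 12.64 in day 0 arrays. Each day 4 array lay below each day 0 array, yet the differences were only -0.07, -0.15 and -0.15 (adjusted p = 0.561, 0.213 and 0.266). The 95% intervals were -0.22 to 0.07 in spontaneous, -0.30 to -0.00 in cardiac and -0.29 to 0.00 in sorted cells. Atp5a1 (alpha) gave 0.10, 0.01 and -0.05, Atp5c1 (gamma) -0.00, -0.06 and 0.05, Atp5d (delta) 0.08, 0.08 and -0.12, and Atp5e (epsilon) 0.03, 0.08 and -0.02.

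Complex I had 1 call among its 36 genes, in spontaneous cells (2.78%, beside 9.75% of all genes). The median difference was 0.01 in spontaneous, 0.03 in cardiac and -0.07 in sorted cells, and cyclic loess turned the first and second to -0.04 and -0.05. Without the libraries of low Kdr the median in sorted cells was -0.13, with 2 genes lower. Genes above 0 numbered 19, 21 and 14 of 36. Ndufb7, an accessory subunit of the membrane arm, had signals of 9.50, 9.56 and 9.55 in spontaneous arrays, 9.33, 9.48 and 9.34 in cardiac arrays, 9.43, 9.57 and 9.44 in sorted arrays and 9.05, 9.01 and 9.25 in day 0 arrays. All 9 day 4 arrays lay above the day 0 arrays. The difference was 0.43 ± 0.11 in spontaneous cells (SE, adjusted p = 0.0288), 0.28 in cardiac cells (adjusted p = 0.170) and 0.37 in sorted cells (adjusted p = 0.0786).

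The 6 core subunits, which carry the flavin and iron-sulphur centres and are shared with bacteria, showed no call. Ndufv1, which binds the flavin and NADH, had signals of 9.23, 9.32 and 9.40 in spontaneous arrays, 8.93, 9.24 and 9.04 in cardiac arrays, 9.02, 9.22 and 8.86 in sorted arrays and 9.27, 9.25 and 9.72 in day 0 arrays. Cardiac and sorted arrays were below day 0, with differences of -0.34 (adjusted p = 0.216) and -0.38 (adjusted p = 0.201), and spontaneous arrays overlapped with it. The iron-sulphur subunits Ndufs1, Ndufs3, Ndufs7, Ndufs8 and Ndufv2 gave -0.00, 0.28, 0.14, -0.05 and -0.02 in spontaneous cells, and -0.11, 0.01, -0.19, -0.26 and 0.14 in sorted cells. In cardiac cells they gave -0.09, 0.16, 0.01, -0.06 and 0.04.

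The 29 accessory subunits, which surround the core, had medians of 0.03, 0.07 and -0.04. Ndufa4, now known to sit in complex IV, had signals of 11.02, 11.22 and 11.19 in spontaneous arrays, 10.68, 11.15 and 10.83 in cardiac arrays, 11.00, 10.99 and 10.91 in sorted arrays and 10.73, 10.74 and 10.89 in day 0 arrays. Spontaneous and sorted arrays did not overlap with day 0, but the differences of 0.36 (adjusted p = 0.0745) and 0.18 (adjusted p = 0.454) did not pass, nor did 0.10 in cardiac cells. Ndufa9, near the quinone site, gave 0.38 in spontaneous cells (adjusted p = 0.0915), and 0.18 and 0.09 in cardiac and sorted cells. Ndufa7 gave -0.35, -0.19 and -0.37, with day 4 arrays below day 0 in each group (adjusted p = 0.128, 0.414 and 0.151). Ndufb9 gave -0.18, -0.17 and -0.45, and Ndufab1, the mitochondrial acyl carrier protein, gave 0.09, 0.25 and 0.07. Ndufs4 and Ndufs6, whose loss causes complex I deficiency in humans, gave 0.22, 0.18 and 0.06, and 0.03, 0.09 and -0.07.

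Ndufaf4, an assembly factor of complex I, had the largest positive difference of the 90 genes in spontaneous cells without passing the test. Its signals were 8.32, 8.69 and 8.94 in spontaneous arrays, 7.19, 8.59 and 8.36 in cardiac arrays, 8.59, 8.32 and 8.25 in sorted arrays and 7.83, 7.76 and 7.56 in day 0 arrays. Day 4 arrays lay above day 0 except for cardiac replicate 1, which was the lowest of all. The difference was 0.94 ± 0.29 in spontaneous cells (SE, adjusted p = 0.0604), 0.67 in sorted cells (adjusted p = 0.226) and 0.33 in cardiac cells (adjusted p = 0.501). Without the 3 libraries of low Kdr it was 0.76 in cardiac cells (adjusted p = 0.0151) and 0.88 in sorted cells (adjusted p = 0.0290). Ndufaf7, a methyltransferase needed for assembly, gave -0.41, -0.08 and -0.37, and Ndufaf1 gave 0.27, 0.17 and 0.08. Ndufaf2, Ndufaf3, Ndufaf5 and Ndufaf6 lay between -0.10 and 0.05 in spontaneous cells, between -0.06 and 0.12 in cardiac cells and between -0.22 and 0.14 in sorted cells.

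Complex II, which also works in the tricarboxylic acid cycle, had no call. Sdha, the flavoprotein, had signals of 10.05, 10.15 and 10.18 in spontaneous arrays, 9.94, 10.16 and 9.99 in cardiac arrays, 9.91, 10.19 and 9.77 in sorted arrays and 9.99, 10.15 and 10.06 in day 0 arrays. These overlapped fully, with differences of 0.06, -0.04 and -0.11 and 95% intervals of -0.20 to 0.33, -0.30 to 0.23 and -0.37 to 0.16. Sdhd, a membrane anchor with NRF1 and ETS letters in the stretch above, had signals of 9.54, 9.65 and 9.72 in spontaneous arrays, 9.48, 9.71 and 9.45 in cardiac arrays, 9.64, 9.78 and 9.43 in sorted arrays and 9.30, 9.33 and 9.39 in day 0 arrays. All day 4 arrays lay above day 0, by 0.30, 0.20 and 0.28 on average (adjusted p = 0.160, 0.350 and 0.245). The other anchor gene, Sdhc, gave -0.24, -0.26 and -0.15, and Sdhb, the iron-sulphur subunit, gave -0.07, -0.10 and -0.30.

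In complex III, Uqcrc1, a core subunit outside the electron path, was the member that fell in sorted cells. Its signals were 10.91, 10.96 and 10.93 in spontaneous arrays, 10.86, 10.92 and 10.75 in cardiac arrays, 10.56, 10.83 and 10.57 in sorted arrays and 11.19, 11.13 and 11.13 in day 0 arrays. All 9 day 4 arrays lay below all day 0 arrays. The difference was -0.50 ± 0.09 in sorted cells (SE, adjusted p = 0.00925), -0.30 in cardiac cells (adjusted p = 0.0769) and -0.21 in spontaneous cells (adjusted p = 0.187). The call in sorted cells held with any single array left out (adjusted p 0.00429 to 0.0420) and without the 3 libraries of low Kdr (-0.59, adjusted p = 0.00645), but a fit of only the 6 arrays compared gave an adjusted p of 0.0757.

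The other complex III genes went both ways, and the median of the 9 was 0.03, 0.00 and -0.03, with 5, 5 and 4 genes above 0. In the single sorted array left without the libraries of low Kdr, the median was -0.22, with 2 genes above 0 and 7 below, and 2 passed as lower. Uqcrc2, the partner core subunit, gave 0.20, 0.18 and 0.22, with spontaneous and cardiac arrays above day 0 (adjusted p = 0.259 and 0.298). Cyc1, the cytochrome c1 that hands electrons to cytochrome c, had signals of 10.57, 10.45 and 10.53 in spontaneous arrays, 10.44, 10.51 and 10.51 in cardiac arrays, 10.08, 10.39 and 10.33 in sorted arrays and 10.65, 10.53 and 10.81 in day 0 arrays. Cardiac and sorted arrays lay below day 0, with differences of -0.18 (adjusted p = 0.356) and -0.39 (adjusted p = 0.0589). Uqcrfs1, the Rieske iron-sulphur protein, gave 0.18, 0.24 and 0.04, and Uqcrh, the hinge protein that helps cytochrome c1, gave 0.43, 0.37 and 0.45 (adjusted p = 0.127, 0.217 and 0.150). Uqcrb, Uqcrq, Uqcr10 and Uqcr11, small subunits, lay between -0.28 and 0.17 in the 3 comparisons.

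In complex IV no gene passed, and the median of the 17 genes was -0.10, -0.14 and -0.17, below 0 under each scaling. Genes above 0 numbered 3, 3 and 6 of 17. Cox5b, which binds zinc, had signals of 11.13, 11.23 and 11.23 in spontaneous arrays, 11.16, 11.19 and 11.04 in cardiac arrays, 10.85, 11.00 and 11.09 in sorted arrays and 11.04, 11.19 and 11.21 in day 0 arrays. The groups overlapped, with differences of 0.05, -0.02 and -0.17 and 95% intervals of -0.15 to 0.25, -0.21 to 0.18 and -0.37 to 0.03. Cox5a, a nuclear-encoded subunit on the matrix side, had signals of 9.75, 9.83 and 9.90 in spontaneous arrays, 9.80, 9.87 and 9.85 in cardiac arrays, 9.62, 9.94 and 9.75 in sorted arrays and 10.04, 10.04 and 10.14 in day 0 arrays. All day 4 arrays lay below day 0, with differences of -0.24, -0.23 and -0.30 (adjusted p = 0.194, 0.233 and 0.149). Cox6c gave -0.07, -0.14 and -0.17, and Cox7a2l, which tethers complexes III and IV into supercomplexes, gave -0.11, 0.03 and -0.12.

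Complex IV has subunits with forms restricted to some tissues. Ndufa4l2, which hypoxia is known to induce, had signals of 6.88, 6.87 and 6.72 in spontaneous arrays, 8.22, 7.12 and 7.22 in cardiac arrays, 7.01, 6.59 and 6.36 in sorted arrays and 8.45, 7.56 and 7.14 in day 0 arrays. Spontaneous and sorted arrays lay below all day 0 arrays, and cardiac replicate 1 was close to the highest day 0 array. The differences were -0.90 ± 0.33 (SE, adjusted p = 0.106), -0.20 (adjusted p = 0.730) and -1.06 ± 0.33 (SE, adjusted p = 0.0860). Its SD at day 0 was 0.67, the widest of the 90 genes there.

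Cox7a1, the heart and skeletal muscle form of subunit VIIa, had signals of 7.48, 7.46 and 7.32 in spontaneous arrays, 8.47, 7.57 and 7.42 in cardiac arrays, 7.17, 7.83 and 7.18 in sorted arrays and 8.79, 7.95 and 7.75 in day 0 arrays. Spontaneous arrays lay below day 0, and cardiac replicate 1 and day 0 replicate 1 were the highest of the 12, as they were for Ndufa4l2. The differences were -0.75, -0.34 and -0.77 (adjusted p = 0.147, 0.503 and 0.179). Its widely expressed partner Cox7a2 gave 0.29, 0.18 and 0.09.

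Of the other muscle forms, Cox6a2 gave -0.04, -0.12 and 0.18 and Cox8b gave -0.10, -0.22 and 0.31. The partners Cox6a1 and Cox8a gave -0.20, -0.25 and -0.44, and -0.10, -0.14 and -0.19. Among the forms known from testis, Cox6b2 gave -0.41, -0.19 and -0.20, Cox8c -0.08, -0.22 and 0.26, and Cox7b2 -0.12, -0.14 and -0.08, the last with a signal below the array's median on all 12 arrays. The partners Cox6b1 and Cox7b gave 0.37, 0.15 and 0.22, and -0.03, -0.03 and 0.00. Cox4i2, known from lung, gave -0.29, -0.29 and -0.25, with spontaneous and cardiac arrays below day 0, and its partner Cox4i1 gave -0.08, -0.20 and -0.24. None of the 8 restricted forms passed, and 0, 0 and 3 of them were above 0 in spontaneous, cardiac and sorted cells.

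**Figure D3:**
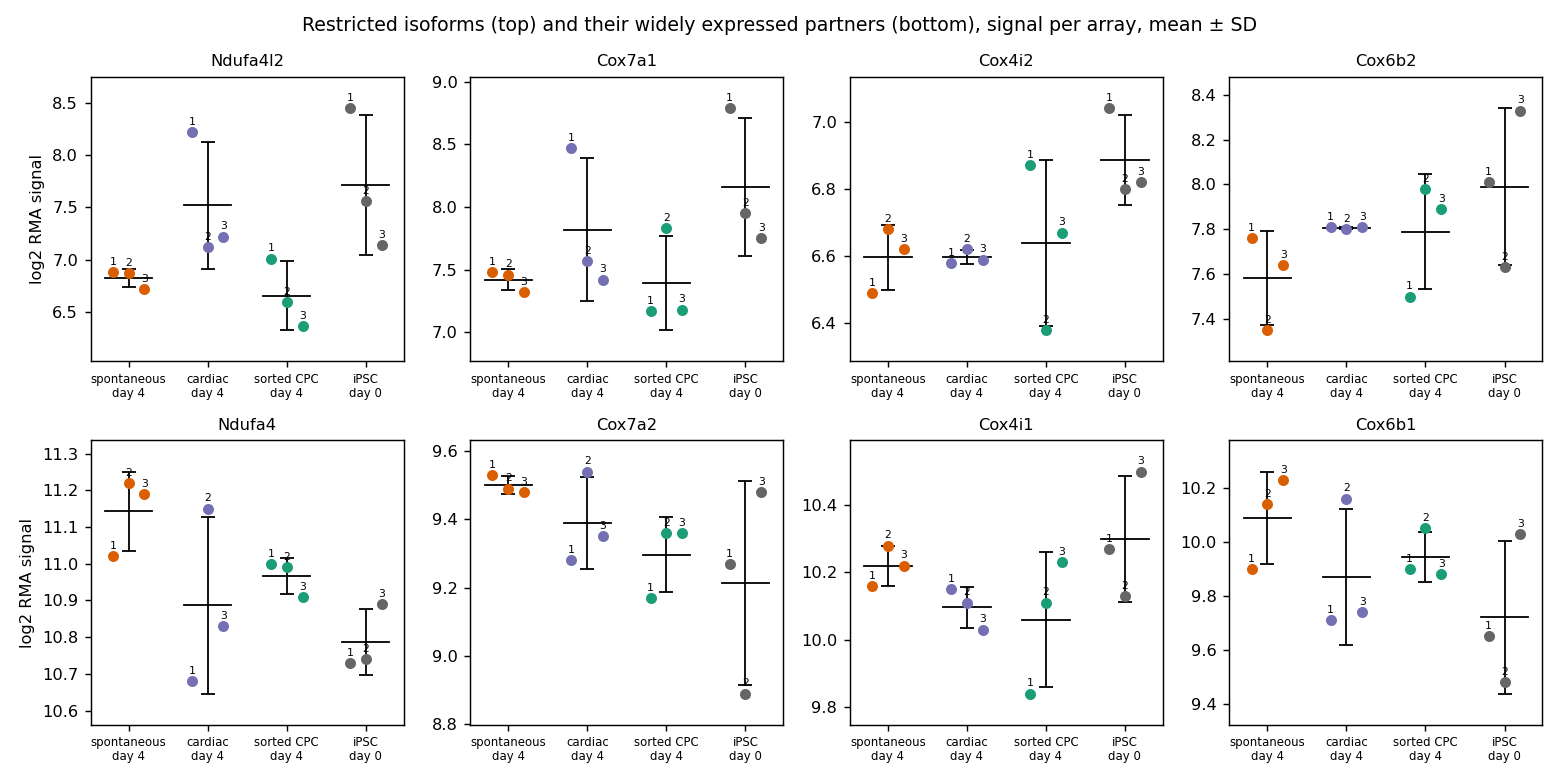
Log2 RMA signal per array of 4 restricted isoform genes (top row) and their widely expressed partners (bottom row), with groups on the horizontal axis from spontaneous, cardiac and sorted CPC day 4 to iPSC day 0. Points are arrays with their replicate number, and bars are mean ± SD of 3 arrays. Cardiac replicate 1 and day 0 replicate 1 are the highest arrays for Ndufa4l2, at 8.22 and 8.45, and for Cox7a1, at 8.47 and 8.79.

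Single arrays of a group were set beside each other as well. Against the day 0 mean, the median of the 90 genes was -0.02, 0.02 and 0.06 in spontaneous arrays, -0.01, 0.07 and -0.05 in cardiac arrays, -0.11, 0.03 and -0.05 in sorted arrays and 0.01, -0.09 and 0.08 in day 0 arrays. The spread among the day 0 arrays thus covered most of the day 4 range. For complex IV the medians of all 9 day 4 arrays were below 0, from -0.19 to -0.06, while those of day 0 arrays were 0.06, -0.11 and 0.06. For complex V, day 4 arrays ran from 0.00 to 0.23 and day 0 arrays from -0.06 to 0.10. The median SD of the members within a group was 0.09 in spontaneous, 0.14 in cardiac, 0.17 in sorted and 0.14 in day 0 arrays, beside 0.10, 0.18, 0.20 and 0.12 over all genes.

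**Figure D4:**
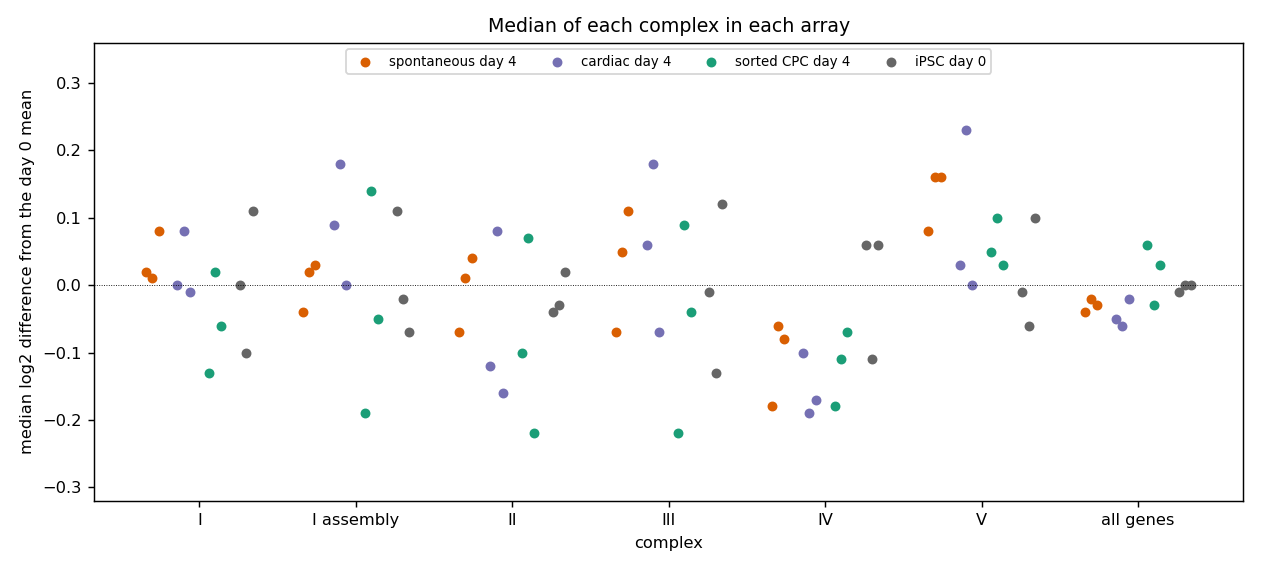
Median log2 difference from the day 0 mean (vertical axis) over the genes of each complex and over all genes (horizontal axis), with 1 point per array and groups from spontaneous, cardiac and sorted CPC day 4 to iPSC day 0 within each complex. Day 4 points lie below 0 in complex IV, from -0.19 to -0.06, and at or above 0 in complex V, from 0.00 to 0.23, with day 0 points from -0.11 to 0.06 and from -0.06 to 0.10.

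The other question was whether the day 4 groups differed from each other. No member passed in cardiac against spontaneous cells, in sorted against cardiac cells or in sorted against spontaneous cells, where 0%, 0% and 0.00502% of all genes passed. At an unadjusted p under 0.05 there were 2, 4 and 11 members, beside 3.73%, 15.7% and 11.6% of all genes. The 95% interval of the difference lay within 1 either way for 87, 88 and 90 of 90 members (96.7%, 97.8% and 100%), beside 95.2%, 94.9% and 94.8% of all genes. Arrays did not overlap for 8 members higher and 5 lower in cardiac than in spontaneous cells, or 14.4%, beside 8.99% of all genes (5.23% higher and 3.77% lower). In sorted against cardiac cells they did not overlap for 2 higher and 4 lower, or 6.67%, beside 13.1% of all genes (7.79% higher and 5.3% lower). In sorted against spontaneous cells they did not overlap for 2 higher and 23 lower, or 27.8%, beside 19.6% of all genes (9.44% higher and 10.2% lower). The median over members was -0.04, -0.06 and -0.11, beside -0.02, 0.03 and 0.03 over all genes. Over the 12320 genes kept by the dim filter, 87 members among them, the medians were -0.01, -0.08 and -0.07. In sorted against spontaneous cells, 583 of those 12320 genes were higher and 1882 lower without overlap. Most genes of the filter that did not overlap were thus lower there too, as among the members. Without the 3 libraries of low Kdr, still 0 members passed in the 3 comparisons, where 0%, 0.823% and 0.792% of all genes passed.

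In each of these comparisons the single widest difference was that of a restricted form. Cox8b, a muscle form of subunit VIII in mice, had signals of 6.38, 5.98 and 6.27 in sorted arrays, 5.72, 5.55 and 5.77 in cardiac arrays and 5.61, 5.92 and 5.87 in spontaneous arrays, with day 0 at 5.73, 6.03 and 5.93. The sorted arrays lay above the other day 4 arrays, by 0.53 over cardiac (adjusted p = 0.265) and 0.41 over spontaneous cells (adjusted p = 0.340), though 10 of its 12 signals were below the median of their array. Cox8c was higher by 0.48 in sorted than in cardiac cells (adjusted p = 0.265), and Ndufa4l2 differed by -0.86 (adjusted p = 0.288). In sorted against spontaneous cells Uqcrc1 differed by -0.28, with a 95% interval of -0.49 to -0.08 (adjusted p = 0.338), and Ndufs7 by -0.33, with an interval of -0.56 to -0.09 (adjusted p = 0.338). In cardiac against spontaneous cells Ndufa4l2 differed by 0.70 and the assembly factor Ndufaf4 by -0.60, and neither passed. Atp5g2 differed by 0.26 there, with an interval of 0.02 to 0.50 (adjusted p = 0.999).

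Genes that work beside the chain were counted from fixed lists. Of 22 listed genes for cytochrome c, carriers and coenzyme Q, 20 were measured, and 1 rose and 3 fell in spontaneous, 0 and 2 in cardiac, and 0 and 2 in sorted cells. Among all genes 9.75%, 6.17% and 5.11% passed. The share of the list was above that of all genes each time, though it rests on only 20 genes. Cyct, the testis form of cytochrome c, had signals of 4.20, 4.08 and 4.15 in spontaneous arrays, 4.78, 3.80 and 4.28 in cardiac arrays, 4.00, 4.07 and 4.31 in sorted arrays and 5.29, 5.06 and 5.00 in day 0 arrays. All day 4 arrays lay below day 0, with mean differences of -0.97, -0.83 and -0.99 (adjusted p = 0.00668, 0.0213 and 0.00850). All 12 signals were below the median of their array and are not shown to lie above background, so these differences are of a dim probe set.

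Slc25a31, the ADP/ATP carrier known from testis and pluripotent cells, had signals of 4.02, 4.30 and 4.44 in spontaneous arrays, 5.68, 4.05 and 4.61 in cardiac arrays, 4.47, 4.25 and 4.57 in sorted arrays and 6.34, 5.83 and 5.74 in day 0 arrays. It was lower in each day 4 group, with cardiac replicate 1 just below the lowest day 0 array. Its day 4 signals and those of day 0 replicates 2 and 3 were all below their array's median, so the size of the difference is uncertain. The differences were -1.72 ± 0.31, -1.19 ± 0.31 and -1.54 ± 0.31 (SE, adjusted p = 0.00486, 0.0381 and 0.0117). Of the 4 germ cell markers, 2 fell in each of the same groups. Mean signals of the 4 were 5.02 to 5.31 in spontaneous, 5.49 to 6.74 in cardiac and 5.35 to 5.85 in sorted arrays, against 6.18 to 7.11 at day 0. Not all of them were lower in cardiac cells. Sycp3 was 8.75, 6.58 and 7.44 there, against 7.16, 7.34 and 6.93 at day 0. Ddx4 in cardiac replicate 1 was 7.86, above all day 0 arrays.

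Slc25a4, the carrier of heart and muscle, had signals of 11.41, 11.68 and 11.78 in spontaneous arrays, 11.27, 11.50 and 11.40 in cardiac arrays, 11.18, 11.22 and 10.92 in sorted arrays and 11.07, 11.15 and 10.85 in day 0 arrays. Spontaneous and cardiac arrays lay above day 0 and sorted arrays overlapped with it. It rose by 0.60 ± 0.12 in spontaneous cells (SE, adjusted p = 0.00969), with differences of 0.36 in cardiac cells (adjusted p = 0.0988) and 0.08 in sorted cells (adjusted p = 0.780). Coq8a, which aids coenzyme Q synthesis, fell by 0.52 in spontaneous cells (adjusted p = 0.0225).

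Of 28 listed genes of the pyruvate dehydrogenase complex, its regulators and the tricarboxylic acid cycle, 26 were measured, and 0 rose and 2 fell in each of the 3 comparisons. That was 7.69% of the measured genes each time, beside 9.75%, 6.17% and 5.11% of all genes. Pdk4, a kinase that switches off pyruvate dehydrogenase, had signals of 5.16, 5.34 and 5.33 in spontaneous arrays, 6.44, 5.39 and 5.87 in cardiac arrays, 4.85, 6.08 and 5.48 in sorted arrays and 7.41, 7.42 and 7.06 in day 0 arrays. Day 4 arrays were all below day 0, with differences of -2.02, -1.39 and -1.82 (adjusted p = 0.00127, 0.0128 and 0.00299). Pdk1, a related kinase, fell by 1.64 in spontaneous cells (adjusted p = 0.0120), and Mpc1, part of the pyruvate carrier of the inner membrane, fell by 0.78 in cardiac and 0.87 in sorted cells (adjusted p = 0.0447 and 0.0300). The enzymes of the cycle itself gave no call.

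Of 42 further assembly factors of the complexes, 38 were measured, and 2 rose and 2 fell in spontaneous, 0 and 0 in cardiac, and 0 and 2 in sorted cells. Among all genes 9.75%, 6.17% and 5.11% passed. The share of the list was close to that of all genes in spontaneous and sorted cells and below it in cardiac cells. Sdhaf2, which places the flavin in Sdha, rose by 0.85 ± 0.19 in spontaneous cells (SE, adjusted p = 0.0135), and Tmem126b, a complex I factor, rose by 0.66 (adjusted p = 0.0446). Cox18, which inserts a mitochondrial subunit of complex IV, fell by 0.74 in spontaneous and 0.70 in sorted cells (adjusted p = 0.0220 and 0.0416). Nubpl, an iron-sulphur factor of complex I, fell by 0.50 and 0.52 (adjusted p = 0.0185 and 0.0226). The subunits encoded by mitochondrial DNA were measured for 2 of 13 genes, ND3 of complex I and COX2 of complex IV, with differences of -0.11 and -0.14 in spontaneous, -0.33 and -0.13 in cardiac and -0.16 and -0.07 in sorted cells, and neither passed.

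Of 25 listed regulators of mitochondrial biogenesis and of these genes, 24 were measured, and 3 rose and 2 fell in spontaneous, 2 and 1 in cardiac, and 2 and 1 in sorted cells. Those were 20.8%, 12.5% and 12.5% of the measured genes, beside 9.75%, 6.17% and 5.11% of all genes. The coactivator gene Ppargc1a gave -0.02, -0.07 and 0.18, Nrf1 gave 0.08, 0.07 and -0.07, Tfam 0.10, 0.12 and 0.10, and Esrra 0.06, -0.15 and -0.15, all without a call. Gabpa gave -0.25, -0.20 and -0.51, Esrrg -0.23, -0.26 and -0.01, and Ppargc1b 0.25, 0.29 and 0.48, also without a call in this fit. In sorted cells Ppargc1b was 0.86 without the libraries of low Kdr (adjusted p = 0.00436), and Gabpa passed under cyclic loess at -0.51 (adjusted p = 0.0453). Esrrb, a nuclear receptor of pluripotent cells that is also on the pluripotency list, had signals of 7.01, 7.30 and 7.97 in spontaneous arrays, 8.08, 7.00 and 7.76 in cardiac arrays, 6.30, 8.39 and 7.05 in sorted arrays and 9.78, 10.55 and 10.14 in day 0 arrays. It fell in each group, with differences of -2.73, -2.54 and -2.91 (adjusted p = 0.00297, 0.00564 and 0.00278).

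Lin28b, an RNA-binding protein that blocks let-7, had signals of 7.88, 7.79 and 7.89 in spontaneous arrays, 7.50, 8.27 and 7.84 in cardiac arrays, 7.63, 8.23 and 7.16 in sorted arrays and 6.41, 6.68 and 6.84 in day 0 arrays. Every day 4 array lay above day 0, and it rose by 1.21, 1.23 and 1.03 (adjusted p = 0.00969, 0.0122 and 0.0294). Its relative Lin28a rose by 0.59, 0.55 and 0.58 (adjusted p = 0.0224, 0.0411 and 0.0361). Myc rose by 1.85 and Tfb1m, a methyltransferase of mitochondrial ribosomal RNA, fell by 0.62 in spontaneous cells (adjusted p = 0.0458 and 0.0263). With any single array left out, the calls of Esrrb held in all 3 comparisons, those of Pdk4 and Cyct in spontaneous and sorted cells, and those of Slc25a31 and Lin28b in spontaneous cells. Those of the other genes named from these lists, and of these 4 in the remaining comparisons, were lost with at least 1 array left out. The calls of Myc and Tfb1m were lost with any of the 6 arrays compared left out (lowest adjusted p 0.0554 and 0.0529).

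Without the 3 libraries of low Kdr, counts on these lists in cardiac cells were 2 higher and 3 lower for cytochrome c, carriers and coenzyme Q, 1 and 4 for pyruvate dehydrogenase and the cycle, 2 and 1 for assembly factors, and 6 and 1 for regulators. In the single sorted array left they were 0 and 4, 0 and 3, 2 and 3, and 3 and 2. The shares over all genes were the 15.3% and 10.9% given above. The calls of Nubpl, Cox18 and Lin28a in sorted cells were lost there (adjusted p = 0.129, 0.0620 and 0.0894).

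**Figure D5:**
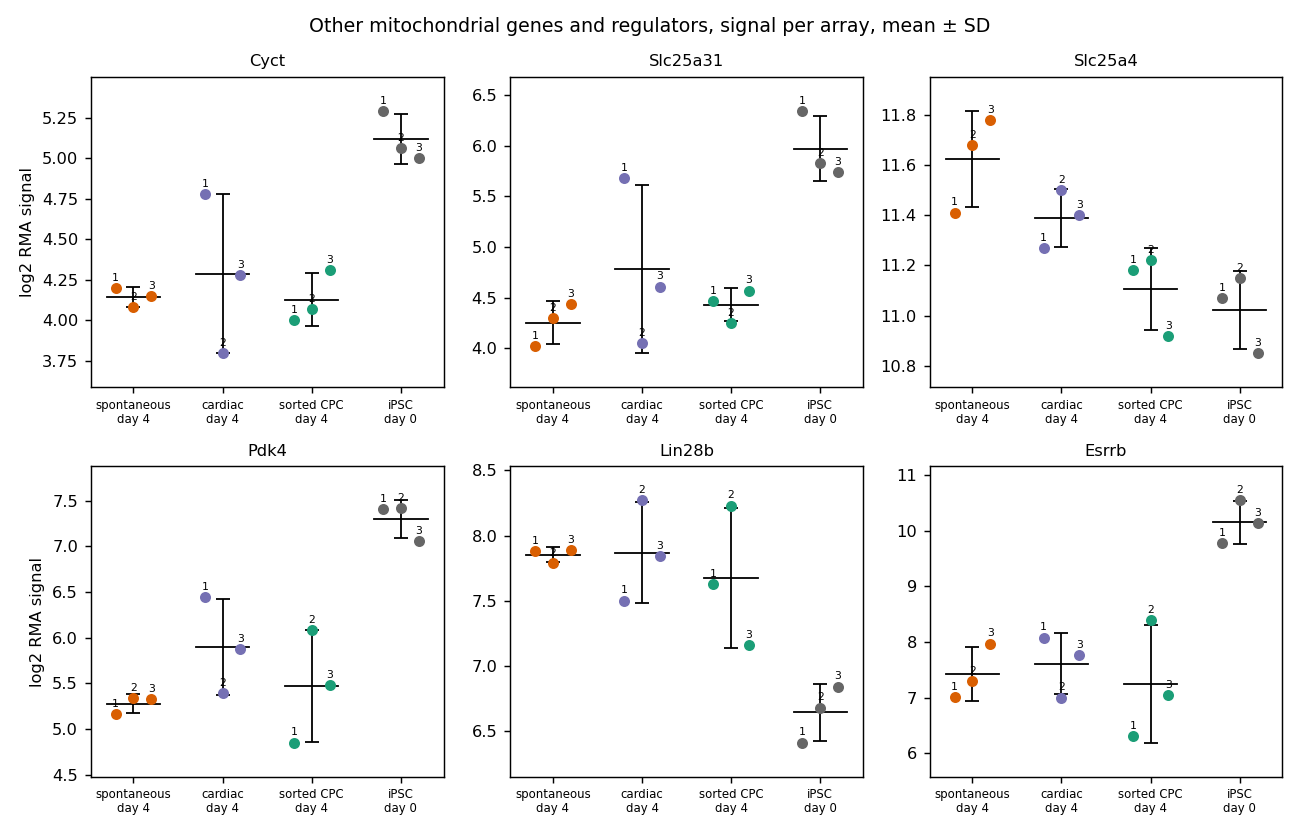
Log2 RMA signal per array of 6 genes that work beside the chain, with groups on the horizontal axis from spontaneous, cardiac and sorted CPC day 4 to iPSC day 0. Points are arrays with their replicate number, and bars are mean ± SD of 3 arrays. Cyct, Slc25a31, Pdk4 and Esrrb lie below all day 0 arrays in every day 4 array, and Lin28b lies above them.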

How the data were processed

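The authors deposited a table of log2 signals from 12 Affymetrix arrays, which the submitters' processing notes credit to RMA and to Affymetrix Expression Console 1.3.1. The log2 scale was read from the deposited values, which ran from 1.87 to 13.87, with array medians of 6.09 to 6.26. No genome build of the probes is stated in what was used here. The table had 35557 probe sets, of which 21789 had 1 gene symbol, 1621 had several and 12147 were not listed in the annotation. Of several probe sets for 1 gene, as 999 genes had, the brightest on average was kept, which left 19938 genes. Members with more than 1 probe set numbered 17. Genes whose probe sets carried several symbols, such as Cox7c and Ndufb4, were not analysed here.

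Groups were compared with limma 3.58.1 in R 4.3.3, with 1 mean per group over all 12 arrays, an intensity trend, 8 residual and 5.01 prior degrees of freedom, two-sided tests and Benjamini-Hochberg adjustment over all genes. Calls required an adjusted p under 0.05 and no minimum fold. The fit was tested on simulated data for spontaneous against day 0 cells (19938 genes), with 50 genes changed at each size. It recovered 24% of genes changed by 0.5 on the log2 scale, 92% at 1, 94% at 1.5 and 98% at 2. There were 10 false calls. In the measured comparison 9.75% of genes passed, so recovery there may differ. The number of arrays limits the precision.

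The members, lists and tests were chosen with earlier results of these data known. Any member could be named; full values were given for members called against day 0, the member of highest mean signal in each complex, the restricted isoforms with their partners, the subunit c genes, up to 4 called genes per list of related genes, named regulators, and Kdr and Pdgfra. The lists were cytochrome c and carriers, pyruvate dehydrogenase and tricarboxylic acid cycle, assembly factors, subunits of mitochondrial DNA, regulators, the mitochondrial ribosome and cell type markers. Alternatives were a 2-fold minimum, the replicate number as a block, no intensity trend, dim genes left out, probe sets averaged, centring on array medians, cyclic loess, only the 6 arrays compared and each array left out.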

Additional observations from a re-analysis of the deposited data

How the results depend on the processing

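Members called in spontaneous against day 0 cells numbered 4 in the fit reported. They numbered 0 with a 2-fold minimum, 10 in a fit of only the 6 arrays compared (9 higher and 1 lower) and 5 after cyclic loess (2 higher and 3 lower). With single arrays left out they ran from 0 to 6, at 0 without day 0 replicate 1, day 0 replicate 2 or any spontaneous array, and at 6 without day 0 replicate 3. In cardiac cells the 0 members became 3 lower after cyclic loess, 0 to 2 with single arrays left out (2 without cardiac replicate 1), and 3 without the 3 libraries of low Kdr. In sorted cells the 1 member became 0 with a 2-fold minimum or only the 6 arrays compared, and 2 with the replicate block, with no intensity trend or with dim genes filtered out. There it was 4 after cyclic loess and 1 to 4 with single arrays left out (2 without day 0 replicate 3 or sorted replicate 2, and 4 without sorted replicate 3). Without the 3 libraries of low Kdr it was 7; leaving these out was chosen after seeing the data. The 3 comparisons among day 4 groups gave 0 members in every setting run. No member called in the fit reported changed sign, but medians near 0 did. The median over members in spontaneous cells was -0.001 in the fit reported and 0.073 after centring, with 58 of 90 above 0, and in cardiac cells it was 0.003 and, after cyclic loess, -0.06. The replicate numbers were not taken as pairs, since correlations of deviations between same-numbered arrays ran from -0.382 to 0.307 and only 6 of 18 were over 0.1. The replicate block gave 4 members in spontaneous cells (3 higher and 1 lower), 0 in cardiac cells and 2 lower in sorted cells, and Atp5g3 had an adjusted p of 0.0561 with it in spontaneous cells. Beyond the fit reported, shares of all genes were given above only for the 2-fold minimum and without the 3 libraries of low Kdr. For the other settings it is therefore not shown whether calls over all genes moved likewise. The causes of the differences between settings were not tested, and the number of arrays limits what can be called.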

Other observations

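Mitochondrial ribosomal proteins are made in the cytosol and serve the translation of the subunits that mitochondrial DNA encodes. All 77 listed genes were measured. In spontaneous cells 5 rose and 0 fell against day 0, in cardiac cells 2 rose and 0 fell, and in sorted cells none passed the test. These were 6.49%, 2.6% and 0% of the list, beside 9.75%, 6.17% and 5.11% of all genes. In cardiac cells the count was 1 higher after cyclic loess, and 8 higher and 0 lower without the 3 libraries of low Kdr, where 15.3% of all genes passed. In sorted cells it was then 1 lower, where 10.9% passed. The median difference was 0.06, 0.04 and -0.04, and after cyclic loess 0.03, -0.00 and -0.02.

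Mrps6, of the small subunit, had log2 signals of 9.02, 9.64 and 9.80 in spontaneous arrays, 8.24, 9.48 and 8.81 in cardiac arrays, 9.19, 8.59 and 8.75 in sorted arrays and 8.25, 8.21 and 8.61 in day 0 arrays. All spontaneous arrays lay above day 0, and the other day 4 groups overlapped with it. It rose by 1.13 ± 0.29 in spontaneous cells (SE, limma adjusted p = 0.0253), with differences of 0.49 in cardiac and 0.49 in sorted cells.

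Mrpl41, of the large subunit, had signals of 8.68, 8.88 and 8.98 in spontaneous arrays, 8.50, 8.87 and 8.47 in cardiac arrays, 8.53, 8.41 and 8.25 in sorted arrays and 8.09, 7.79 and 8.25 in day 0 arrays. Spontaneous and cardiac arrays lay above day 0, and the lowest sorted array was level with the highest day 0 array. It rose by 0.80 ± 0.16 in spontaneous cells (SE, limma adjusted p = 0.00906), and the adjusted p ran from 0.0122 to 0.0487 with any single array left out. Mrps36 rose by 0.66 in spontaneous and 0.70 in cardiac cells (limma adjusted p = 0.0408 and 0.0433), and Mrps21 and Mrpl34 rose by 0.58 and 0.56 in spontaneous cells (limma adjusted p = 0.0214 and 0.0416). Mrpl23 rose by 0.53 in cardiac cells (limma adjusted p = 0.0429). These ribosomal calls other than that of Mrpl41 were each lost on leaving out any of 4 to 6 of the 6 arrays compared. Those of Mrpl34 in spontaneous and Mrpl23 in cardiac cells were lost with any of the 6 (lowest limma adjusted p 0.0582 and 0.0693).

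Among the cell type markers not given above, 0 of 4 skeletal muscle genes passed in any day 4 group, 1 of 5 blood and endothelium genes fell in each, and 2, 1 and 1 of 4 measured nascent mesoderm genes rose in spontaneous, cardiac and sorted cells. Of Kdr and Pdgfra, 1 rose in spontaneous cells and 0 in cardiac and sorted cells. The shares of all genes were 5.46%, 3.37% and 1.81% higher and 4.29%, 2.80% and 3.31% lower in spontaneous, cardiac and sorted cells.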
